A study of Homo sapiens with 16 samples.

Results

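The response to 5-fluorouracil (5-FU) was followed in U2OS cells whose MDM2 gene carries the W329G change. U2OS is a human osteosarcoma line, and the cells were edited with CRISPR/Cas9, per the series' design text. The libraries were chosen by their titles: 4 W329G libraries treated with 50 µM 5-FU for 24 h and 4 W329G libraries treated with DMSO, the solvent, for the same time, which makes 8 of the 16 libraries of the series. The other 8 are the same treatments in wild-type (WT) U2OS cells and serve here only to show where the W329G response differs. Every W329G library carries the edited MDM2, the DMSO controls included, so the comparison shows the drug and not the edit. Each treatment was applied to cells 1 and cells 2 in 2 experiments sequenced by different vendors. Pair 1 and pair 2 are cells 1 and 2 of experiment 1, pair 3 and pair 4 are cells 1 and 2 of experiment 2, and each pair is the DMSO and the 5-FU library of the same cells and experiment. The labels do not say whether a cells number stands for 1 clone, and p-values here reflect how far these 4 pairs differ, which may be technical.

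5-FU is a pyrimidine analog. Its metabolites block thymidylate synthase, enter DNA and RNA, and disturb the processing of ribosomal RNA. In cells with intact p53 it frees p53 from MDM2, the ubiquitin ligase that keeps p53 low, and p53 then switches on the genes of cell cycle arrest and, through p21, switches off the genes of the cell cycle. Cells also answer drugs through routes that do not need p53: the ATF4 program adjusts amino acid supply, chaperone genes follow protein folding load, and immediate early genes follow signalling through kinases.

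The edited residue lies in the zinc finger of MDM2, the region through which MDM2 binds the ribosomal proteins RPL5 and RPL11. In the MDM2 transcript MDM2-225 of GENCODE release 29, which codes for 491 amino acids, the codon named in W329G is TGG (tryptophan) and lies in exon 11, at chr12:68839358-68839360 on the plus strand of GRCh38. The coding sequence around it is shown as the reference has it, unedited, since the counts do not show the edit, with that codon in capitals (chr12:68839334-68839384):
MDM2: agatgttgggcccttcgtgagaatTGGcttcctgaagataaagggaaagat

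Mitotic genes and amino acid genes were among those that fell, and short promoter stretches of members that passed the test are shown because each family is known for a promoter motif. Mitotic genes carry the CHR element (TTTGAA), through which the DREAM and MuvB complexes act. Stretches around the CHR match nearest to the gene start, from the RefSeq promoters of GRCh38.p14 and with matches in capitals, were these (the capitals at the start of the DLGAP5 stretch are the end of a match that begins before it):
DLGAP5 (chr14:55191662-55191721, minus strand): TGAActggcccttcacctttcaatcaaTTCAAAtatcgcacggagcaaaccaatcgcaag
HMMR (chr5:163460583-163460631, plus strand): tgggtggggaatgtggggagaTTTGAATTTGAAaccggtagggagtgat
CCNB2 (chr15:59105090-59105145, plus strand): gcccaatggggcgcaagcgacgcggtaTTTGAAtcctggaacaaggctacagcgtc
ATF4 binds an element read here as TGATGNAA. It stood in these promoters, on the plus strand of the gene in ASNS and on the other strand in IARS1 and AARS1:
ASNS (chr7:97872442-97872503, minus strand): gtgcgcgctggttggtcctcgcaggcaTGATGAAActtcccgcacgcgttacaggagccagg
IARS1 (chr9:92293698-92293737, minus strand): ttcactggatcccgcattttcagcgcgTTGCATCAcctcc
AARS1 (chr16:70289659-70289720, minus strand): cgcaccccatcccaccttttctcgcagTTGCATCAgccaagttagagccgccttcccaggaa
A window of 250 bases before to 50 after the start was searched on both strands; the windows matched 57 of the 68 tested members of the G2/M list and 39 of the 49 tested members of the ATF4 list by symbol. The CHR letters were in 66.7% of the 30 matched G2/M genes that fell, in 59.3% of the 27 other members, in 10.1% of the promoters of all tested genes and in 15.4% of all 27305 promoters. The ATF4 element was in 30.0% of the 20 matched amino acid genes that fell, in 26.3% of the other 19, in 1.9% of the promoters of tested genes and in 3.7% of all promoters. Members that fell and members that did not pass thus carried the letters at similar shares.

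Total counts of the 8 libraries ran from 27533901 to 45063476. Mitochondrially encoded genes took 7.14%, 16.4%, 20.01% and 22.0% of the joined counts in the DMSO libraries of pairs 1 to 4 and 7.98%, 20.49%, 26.02% and 18.22% in the 5-FU libraries, so the share rose in 3 pairs and fell in pair 4. Of 12 markers of mesenchymal and osteosarcoma cells 9 had at least 1 CPM (counts scaled to library size) in all 8 libraries. ALPL and COL1A2 lay between 0.171 and 3.83 CPM and TWIST1 between 0 and 0.29 CPM. The summed levels of epithelial, blood and endothelial markers were 150 to 753 CPM, 9.69 to 76.1 CPM and 6.94 to 15.5 CPM under DMSO, and 147 to 741 CPM, 13.4 to 144 CPM and 7.65 to 24 CPM under 5-FU. The neural list summed to 198 to 296 CPM under DMSO and 245 to 311 CPM under 5-FU, with SOX10 at 0 in every library. The part of these markers in the results was not tested.

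In W329G cells 5-FU changed 1622 of 15483 tested genes (10.5%) at an adjusted p under 0.05 in the paired edgeR quasi-likelihood test. Of these 829 rose (5.35%) and 793 fell (5.12%), and 1586 moved the same way in all 4 pairs. The changes were mostly small. The median absolute log2 fold change of the called genes was 0.54, and 190 changed by at least 1 on the log2 scale, 111 up and 79 down. For 438 of the called genes the 4 DMSO and 4 5-FU values did not overlap at all, which held for 4.48% of all tested genes. The calls rest on the pairing: a fit with a term for experiment and no pairs called 1 gene, where 1969 had an unadjusted p under 0.05 and DESeq2 called 631. That fit called 0 members of each list described below. The count fell to 289 without pair 1 and to 206 without pair 3, against 1337 and 1356 without pair 2 and pair 4.

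GC content moved with the response in experiment 2. Across 15483 genes, which are not independent, the response correlated with the GC content of the gene's longest transcript with a Spearman rho of 0.08 and -0.10 in pairs 1 and 2 and of 0.49 and 0.52 in pairs 3 and 4. The points of a pair share its DMSO and 5-FU libraries. Genes that rose had a median GC content of 57.8% and genes that fell 44.0%, against 48.4% in genes that were not called. With each library corrected for GC content the fit called 2232 genes, 1159 up (7.49%) and 1073 down (6.93%), and 1382 of the 1622 kept their call and direction. Counts with this correction, chosen after seeing the data, are given beside each group below. They are to be read against the 7.49% up and 6.93% down of all tested genes.

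**Figure D1:**
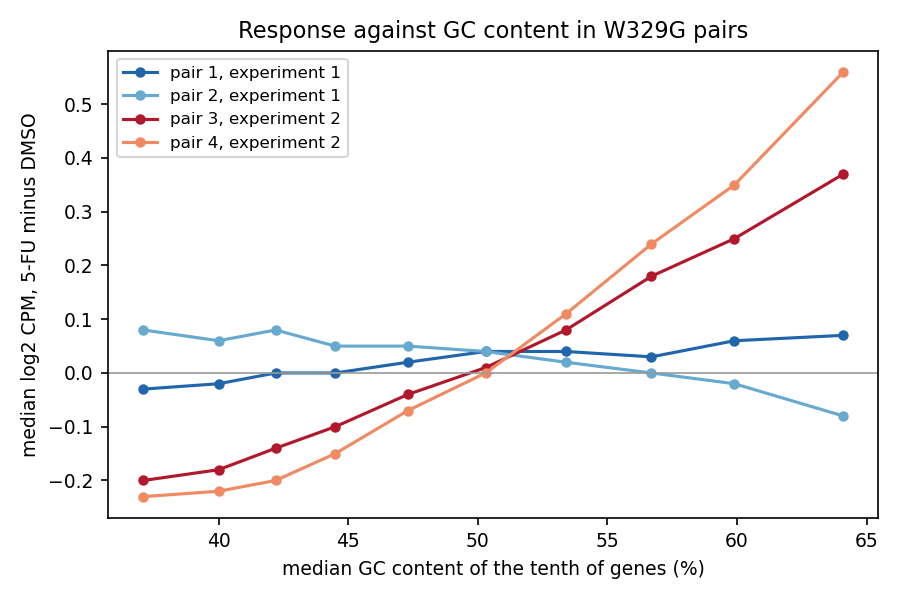
Median 5-FU minus DMSO difference in log2 CPM (y axis) over 10 equal bins of the tested genes ordered by GC content (x axis, median % of each bin), with 1 line per W329G pair. The lines of pairs 1 and 2 stay between -0.08 and 0.08, while those of pairs 3 and 4 climb from -0.20 and -0.23 to 0.37 and 0.56.

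Of 49 tested genes of the ATF4 and amino acid list 26 fell and 0 rose, against 5.12% of all tested genes that fell, with a median log2 change of -0.38 against 0.02 over all genes. With GC correction 33 fell and 0 rose. PCK2 makes phosphoenolpyruvate in mitochondria. Its level was 121, 97.9, 65.7 and 50.7 CPM under DMSO in pairs 1 to 4 and 54.3, 33.1, 23.6 and 25.3 CPM under 5-FU, a log2 change of -1.30 ± 0.11 (SE, adjusted p = 0.000934). Every pair fell by 1.00 or more, and only the 5-FU value of pair 1 reached above the lowest DMSO value. ASNS, the asparagine synthetase whose promoter is shown above, went from 404, 240.5, 169 and 238 CPM to 251, 112, 66.5 and 107 CPM (-1.07 ± 0.11, adjusted p = 0.00205). ALDH1L2, a mitochondrial folate enzyme, went from 50.7, 48.3, 61.4 and 62.2 CPM to 33.7, 17.9, 22.9 and 21.9 CPM (-1.24 ± 0.15, adjusted p = 0.00288), with no overlap between the groups. ALDH1L2 overlaps NOPCHAP1 on the opposite strand, whose counts were 0.28 times as many.

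The transcript of the factor itself fell too. ATF4 went from 586, 458, 409 and 447 CPM to 366, 332, 306 and 275 CPM, all 5-FU values below all DMSO values. Other members that fell were the serine synthesis enzymes PSAT1 (-0.75 ± 0.11) and PHGDH (-0.57), the cystathionase CTH (-1.05 ± 0.15), the cystine carrier SLC7A11 (-1.03 ± 0.16), the mitochondrial folate enzymes SHMT2 (-0.53) and MTHFD2 (-0.51), and 11 tRNA synthetase genes from GARS1 (-0.64 ± 0.10) to LARS1 (-0.36). The stress-inducible members DDIT3 and CHAC1 had unlike pair values in the experiments. DDIT3, which encodes CHOP, had pair differences of 0.95 and 0.79 in experiment 1 and -0.52 and -0.38 in experiment 2, and CHAC1 had 0.22, -0.16, -4.10 and -1.01. Neither passed the test of the 5-FU response (adjusted p = 0.643 and 0.234). Neither was among the 13 genes whose difference between the experiments passed. Mean list responses of the pairs were -0.141, -0.451, -0.629 and -0.511, so pair 1 moved least. The count of members that fell was 16 without pair 1, 6 without pair 3 and 21 and 24 without the other pairs, with medians from -0.45 to -0.34.

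**Figure D2:**
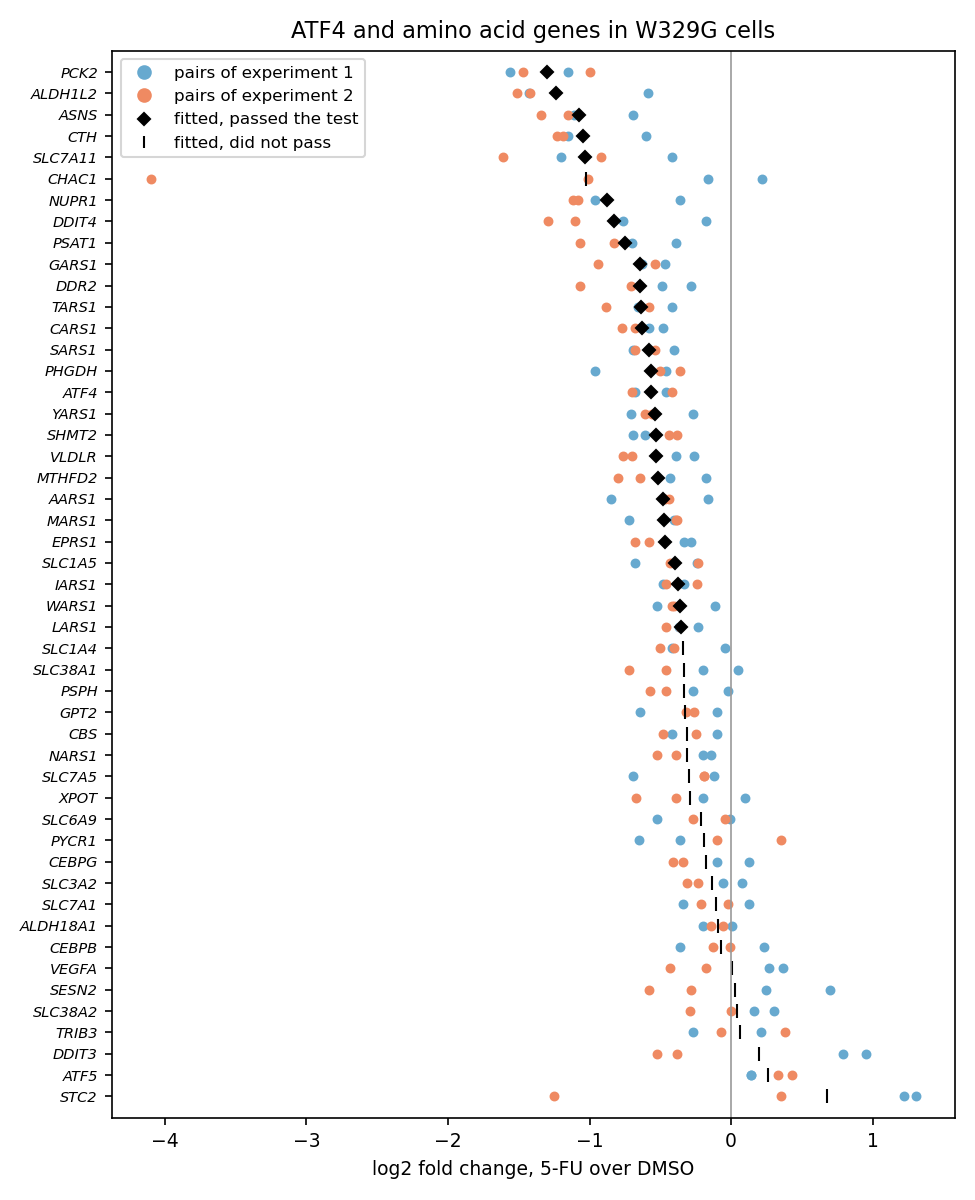
Log2 fold change under 5-FU (x axis) for each of the 49 tested ATF4 and amino acid genes (y axis), with 1 point per W329G pair coloured by experiment and the fitted value in black. The 26 fitted values that passed the test all lie below 0, from PCK2 at -1.30 to LARS1 at -0.36.

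In WT cells 34 members of the list fell and 2 rose (13.1% of 16429 tested genes fell and 11.6% rose), with a median of -0.52. The difference between the genotypes passed for 4 members, 1 with a higher value in W329G and 3 with a lower one, where 3.6% and 2.54% of all tested genes did so. For ASNS the difference was -0.16 ± 0.18 (SE) and for PCK2 -0.13 ± 0.20.

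Of 29 tested translation factor genes and other genes with a 5′ terminal oligopyrimidine tract 17 fell and 0 rose (median -0.35 on the log2 scale), and 15 fell with GC correction. Of all tested genes 5.12% fell. EIF4B, an initiation factor that helps the helicase EIF4A, went from 819.5, 716, 654 and 793 CPM to 435, 362, 412 and 425 CPM (-0.87 ± 0.10, adjusted p = 0.00232). HNRNPA1, an RNA-binding protein gene, went from 2074, 1819, 1672 and 1669 CPM to 996, 992, 1138 and 1097 CPM (-0.77 ± 0.12, adjusted p = 0.00588). NAP1L1, a histone chaperone gene, went from 843, 773, 688 and 984 CPM to 494, 486, 469.6 and 549 CPM (-0.71 ± 0.09, adjusted p = 0.00413). In all 3 genes the groups did not overlap. EEF1A1, the elongation factor that brings tRNA to the ribosome, averaged 10370 CPM under DMSO and 6395 CPM under 5-FU (-0.67 ± 0.14), and several subunits of the initiation factor eIF3, such as EIF3L (-0.61), EIF3F (-0.57) and EIF3E (-0.58), fell as well. The count was 3 without pair 1, 4 without pair 3 and 10 without pair 2, with medians of -0.36 or -0.37. In WT 17 members fell and 1 rose (median -0.36), where 13.1% and 11.6% of all tested genes did so. The difference between genotypes passed for 0 members.

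Among 79 cytosolic ribosomal protein genes 14 fell and 0 rose, where 5.12% of all tested genes fell. Values were negative for 78, with a median of -0.28 (21 fell with GC correction, median -0.23). RPL3 went from 2404, 1961, 1059 and 797 CPM to 917, 777, 522 and 508 CPM (-1.10 ± 0.13, adjusted p = 0.00293), a decrease in every pair, though the 5-FU value of pair 1 exceeded the DMSO value of pair 4. RPL10A went from 742, 567, 402 and 348 CPM to 295, 318, 210.2 and 207 CPM (-0.96 ± 0.11, adjusted p = 0.00272) with no overlap. RPL12 (-0.70 ± 0.10), RPS9 (-0.71 ± 0.15) and RPL13A (-0.57) were the next. The list as a whole moved unequally between pairs, by -0.591, -0.060, -0.306 and -0.212. A wider share took in all genes whose symbols begin with RPL or RPS and a digit, so also paralogs and pseudogenes outside the list. This share of a library's joined counts went from 8.15%, 5.53%, 3.71% and 3.76% to 5.88%, 5.04%, 2.85% and 3.45%. Members have near-identical copies elsewhere in the genome that can share reads. The count was 3 without pair 1, 2 without pair 3, 26 without pair 2 and 9 without pair 4. In WT 5 members fell and 1 rose (median -0.05), where 13.1% and 11.6% of all tested genes did so. The difference between genotypes passed for 1 member, lower in W329G, where 2.54% of all tested genes had such a difference. RPL22L1, a paralog of RPL22 outside this list, fell furthest of the genes named by rule: 99.3, 72.2, 75.3 and 88.2 CPM under DMSO and 19.4, 36.3, 24.4 and 24.9 CPM under 5-FU (-1.70 ± 0.18, adjusted p = 0.00223).

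Of 84 tested ribosome biogenesis genes 6 rose and 5 fell, with a median of 0.03, shares near those of all tested genes (5.35% and 5.12%). With GC correction 11 rose and 4 fell. NOP2, a methyltransferase of ribosomal RNA, went from 54.8, 63.2, 59.3 and 62.8 CPM to 78.1, 106, 84.2 and 93.1 CPM (0.58 ± 0.09, adjusted p = 0.00588). NOP53, which acts late in large subunit assembly, fell by 0.78 ± 0.13 on the log2 scale (adjusted p = 0.00938), by 1.04 and 1.11 in the pairs of experiment 1 and by 0.31 and 0.64 in those of experiment 2. The counts were 1 and 0 without pair 1 and 1 and 1 without pair 3.

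Of 44 tested genes of the unfolded protein response and heat shock 12 fell and 0 rose, where 5.12% of all tested genes fell. The median was -0.27, and 18 fell with GC correction. HSPA8, the constitutive HSP70 of the cytosol, went from 1625, 1494, 1306 and 1684 CPM to 695, 782, 652 and 641 CPM (-1.14 ± 0.11, adjusted p = 0.00195), with the groups far apart. HSPA5, the HSP70 of the endoplasmic reticulum, went from 760, 1185, 897 and 712 CPM to 503, 739, 477 and 306 CPM (-0.85 ± 0.12, adjusted p = 0.00489). XBP1, a transcription factor of the unfolded protein response, went from 78.2, 95, 64.3 and 53 CPM to 59.4, 51.1, 28.3 and 24.2 CPM (-0.90 ± 0.13, adjusted p = 0.00546). HSPA8 and HSPA1A have close copies that can share reads. The count was 5 without pair 1 and 3 without pair 3. In WT 19 members fell, where 13.1% of all tested genes fell.

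Of 68 tested G2/M genes 34 fell and 1 rose, KIF18B, with a median of -0.40; with GC correction 45 fell and 0 rose. Of 55 tested G1/S and replication genes 4 fell and 0 rose, with a median of -0.08, a share near the 5.12% of all tested genes that fell, and 0 passed without pair 1 or without pair 3. CDC25C, the phosphatase that activates CDK1, went from 32.5, 24.3, 20.4 and 30.4 CPM to 17.2, 18, 11.1 and 16.3 CPM (-0.78 ± 0.11, adjusted p = 0.00536). It overlaps FAM53C on the opposite strand, which had 2.9 times its counts. DLGAP5, a spindle protein gene, went from 203, 187, 200 and 233 CPM to 132, 139.9, 126 and 140.4 CPM (-0.61 ± 0.09, adjusted p = 0.00536). HMMR, another spindle gene, went from 77.9, 72.9, 86.3 and 102 CPM to 50.4, 54.5, 49.2 and 51.5 CPM (-0.71 ± 0.11, adjusted p = 0.00588). In each of these the groups did not overlap, and pair 2 moved least, as it did in the list mean (-0.383, -0.184, -0.400 and -0.474 in pairs 1 to 4). The mitotic cyclin genes CCNB1 (-0.64 ± 0.10) and CCNB2 (-0.59 ± 0.10) and the kinase genes BUB1 (-0.56 ± 0.09) and PLK1 (-0.58 ± 0.11) fell as well. The count of G2/M genes was 3 without pair 1, 2 without pair 3 and 23 without pair 4, with medians from -0.46 to -0.33, and it was 16 in experiment 1 alone and 51 in experiment 2 alone.

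The 4 replication genes that fell were MCM6 (-0.56 ± 0.11), a subunit of the replicative helicase, POLE2 (-0.56 ± 0.09), PRIM2 (-0.34) and PCNA (-0.40 ± 0.08). TYMS, the thymidylate synthase that 5-FU targets, was at 349.8, 273, 396 and 539.9 CPM under DMSO and at 319, 235, 384 and 514 CPM under 5-FU (-0.12 ± 0.09, adjusted p = 0.406), so its change was not past the test. Of all tested genes 13.1% fell in WT. The difference between genotypes passed for 3.6% with the higher value in W329G and for 2.54% with the lower one. In WT all 55 replication genes fell, with a median of -1.13, and the difference between genotypes passed for 48, all with the higher value in W329G. Of the G2/M list 53 members fell in WT with a median of -0.51, and the difference passed for 6, all higher in W329G, and for 0 in the other direction. Replication-dependent histone genes fell in W329G for 6 of 24 tested members, where 5.12% of all tested genes fell. Their median was -0.59, and 7 fell with GC correction. The count was 1 without pair 1 and 2 without pair 2 or pair 3. The libraries hold poly-A RNA, so only histone transcripts with a poly-A tail are seen. H2BC21 went from 14.2, 14.9, 9.58 and 7.86 CPM to 5.74, 5.63, 5.82 and 4.11 CPM (-1.09 ± 0.15, adjusted p = 0.00466). In WT it changed by 0.14 ± 0.12, and the difference was -1.23 ± 0.18 (adjusted p = 0.00119).

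**Figure D3:**
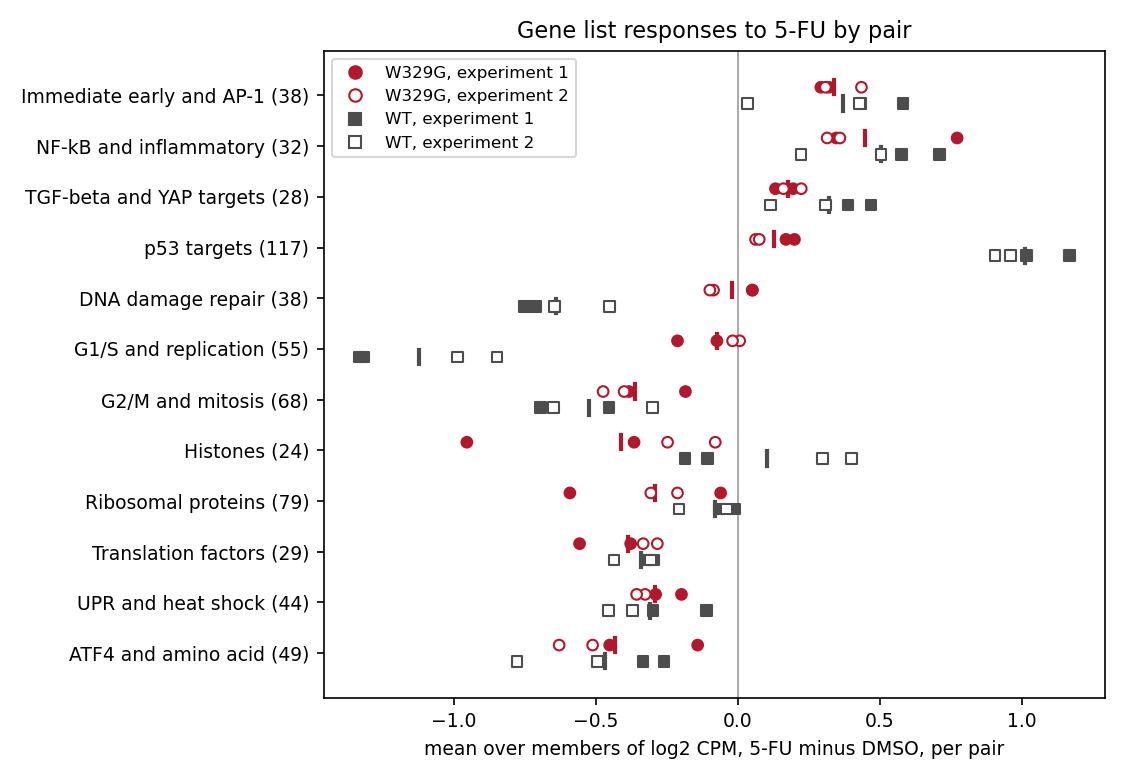
Mean 5-FU minus DMSO difference in log2 CPM over the tested members of 12 gene lists (member numbers in brackets) for each W329G pair (circles) and WT pair (squares), filled for experiment 1 and open for experiment 2, with a bar at the mean of the 4 pairs. The genotypes lie far apart for p53 targets (0.127 in W329G, 1.013 in WT), G1/S and DNA repair genes, while the points of translation factors, chaperones and ATF4 genes overlap.

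Of 117 tested p53 target genes 19 were called up and 5 down (median log2 change 0.08), where 5.35% of all tested genes rose and 5.12% fell. With GC correction 23 rose and 7 fell. CDKN1A, which encodes p21, rose in each pair, from 123, 128, 73.8 and 61.8 CPM to 245, 184, 115 and 95.1 CPM (0.69 ± 0.10, adjusted p = 0.00536), with overlap between groups because experiment 1 stood higher. MDM2 itself was at 61.1, 43.6, 74.8 and 122 CPM under DMSO and at 76.9, 60.4, 67.8 and 106 CPM under 5-FU. It went up in the pairs of experiment 1 (0.33 and 0.47) and down in those of experiment 2 (-0.14 and -0.20), and the fitted change was 0.11 ± 0.12 (adjusted p = 0.606). MDM4, a relative of MDM2 that also restrains p53, split the same way between the experiments (0.60, 0.63, -0.14 and -0.27; adjusted p = 0.459).

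Among the 19 targets that rose were the kinase gene PLK3 (0.87 ± 0.11), the cytokine genes LIF (0.66 ± 0.08) and CSF1 (0.70 ± 0.11), the receptor gene EPHA2 (0.72 ± 0.10) and the AP-1 gene FOSL1 (0.64 ± 0.12). The difference from WT passed for PLK3 (-0.72) and did not pass for LIF (-0.07 ± 0.13) or CSF1 (-0.60 ± 0.20). GDF15, which encodes a secreted stress cytokine, rose by 0.78 ± 0.17 against 2.86 ± 0.15, CDKN1A by 0.69 against 2.44 ± 0.13 and the exonuclease gene AEN by 0.61 ± 0.09 against 1.15 ± 0.10, with the difference past the threshold for these 3 as well (adjusted p = 0.000115, 0.000115 and 0.035). The 5 targets that fell were CCNG1, CCNG2, DDIT4, PRDM1 and TNFAIP8. CCNG1, an atypical cyclin gene, went from 173, 158, 172 and 187 CPM to 106, 108, 107 and 114 CPM (-0.67 ± 0.08, adjusted p = 0.00299). CCNG2 went from 64.8, 48.9, 56.9 and 66.3 CPM to 39.9, 31, 28 and 35.6 CPM (-0.82 ± 0.10, adjusted p = 0.00272). Neither overlapped between groups, and in WT they rose, by 0.41 ± 0.09 and 0.46 ± 0.10. DDIT4, an inhibitor of mTORC1, fell by 0.83 ± 0.16 on the log2 scale but by 0.18 in pair 1 and 1.29 in pair 3, while in WT it rose by 0.89 ± 0.14. The difference passed for all 3, at -1.08 ± 0.13, -1.28 ± 0.14 and -1.72 ± 0.20. Over the list the difference passed for 73 targets, all lower in W329G, where 2.54% of all tested genes had such a difference. The count of targets that rose was 7 without pair 1 and 5 without pair 3.

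**Figure D4:**
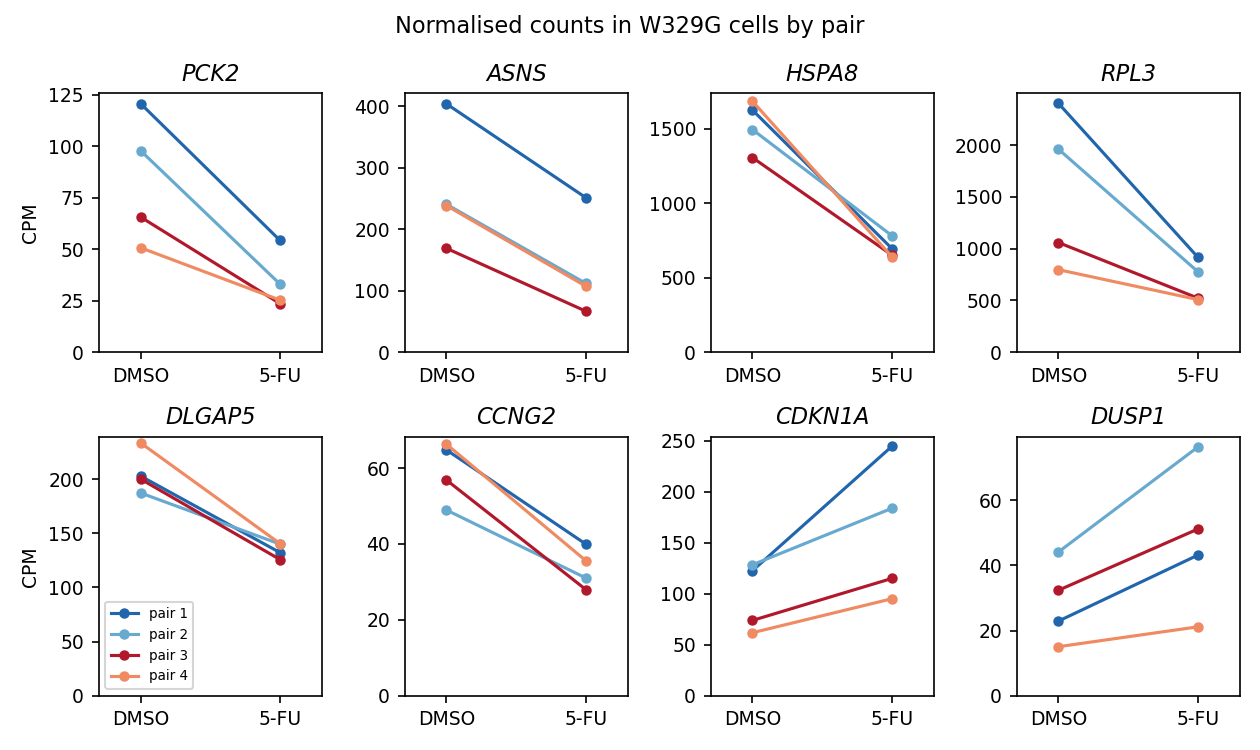
Normalised counts (CPM, linear axis from 0) of 8 genes in the W329G libraries, with a line joining the DMSO and the 5-FU library of each pair. PCK2, ASNS, HSPA8, RPL3, DLGAP5 and CCNG2 fall and CDKN1A and DUSP1 rise in all 4 pairs, while the starting levels of RPL3 range from 797 to 2404 CPM.

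Of 38 tested immediate early and AP-1 genes 13 rose and 0 fell, where 5.35% of all tested genes rose. The median was 0.33, and 11 rose with GC correction. DUSP1, a phosphatase that acts on MAP kinases, went from 22.9, 44.1, 32.4 and 15 CPM to 43.2, 76.4, 51.2 and 21.1 CPM (0.72 ± 0.10, adjusted p = 0.00466). IER3, a stress-inducible survival gene, went from 139, 125, 48.4 and 58.3 CPM to 202, 212, 73.2 and 75 CPM (0.57 ± 0.09, adjusted p = 0.00813). ARC went from 30.6, 49.5, 22 and 14.6 CPM to 44.3, 76.8, 55.9 and 41.9 CPM (1.00 ± 0.16, adjusted p = 0.00813). Each rose in every pair while the groups overlapped, since DMSO levels differed several-fold between libraries. JUN (0.53 ± 0.10), EGR1 (0.42 ± 0.11) and the nuclear receptor gene NR4A1 (0.44 ± 0.12) rose as well. KLF2, a transcription factor gene, rose by 1.01 ± 0.18 from a low level (2.2, 2.79, 3.55 and 3.57 CPM under DMSO) where WT cells had a change of -0.69 ± 0.19, a difference of 1.69 ± 0.26 (adjusted p = 0.0017). The count was 8 in the fit of all 16 libraries, 3 without pair 1 and 1 without pair 3, with medians from 0.31 to 0.34. In WT 20 members of the list rose and 1 fell (median 0.41), where 11.6% and 13.1% of all tested genes did so. The difference between genotypes passed for 1 member, higher in W329G, and for 0 in the other direction. Of all tested genes 3.6% and 2.54% had such differences.

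Of 32 tested NF-kB and inflammatory genes 7 rose and 0 fell, where 5.35% of all tested genes rose. The median was 0.40, and 12 rose with GC correction. LIF rose by nearly the same amount in each pair (0.71, 0.58, 0.70 and 0.65), and CSF1 went from 22, 18.4, 14.3 and 21.4 CPM to 40.7, 24.9, 25.7 and 33.3 CPM with no overlap. TNFAIP3, a brake on NF-kB, rose by 1.01 ± 0.17 and the chemokine gene CCL2 by 0.92 ± 0.18. LIF, CSF1 and IER3 are each in another of these lists as well. The count was 1 without pair 1 and 2 without pair 3. In WT 15 members rose and 0 fell (median 0.44), where 11.6% and 13.1% of all tested genes did so. The difference between genotypes passed for 0 members of the NF-kB list. Of 28 TGF-beta and YAP targets 5 rose and 2 fell, where 5.35% and 5.12% of all tested genes did so. Without pair 1 or without pair 3, 2 rose and 0 fell. CNN1, which binds actin, went from 3.54, 16.4, 8.84 and 2.61 CPM to 10.2, 33, 18.4 and 4.45 CPM (1.10 ± 0.14, adjusted p = 0.0034), against -0.11 ± 0.12 in WT. In WT 11 members of this list rose and 0 fell, where 11.6% and 13.1% of all tested genes did so. The difference passed for 1 member with the higher value in W329G and for 5 with the lower one, where 3.6% and 2.54% of all tested genes did so.

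The largest single increases among genes of at least 5 CPM were mostly of low-expressed genes. CEP295NL went from 2.6, 1.7, 1.18 and 2.71 CPM to 22.4, 15.3, 8.28 and 15 CPM (2.88 ± 0.16, adjusted p = 0.000138). It overlaps TIMP2 on the same strand, which had 28.8 times its counts, and reads of these 2 genes cannot be told apart here. PEAR1, a platelet receptor gene, rose by 1.40 ± 0.12 with pair values of 1.39, 1.40, 1.39 and 1.37, at DMSO levels of 2.0 to 8.37 CPM. ADAMTS1, a secreted metalloprotease gene, went from 4.08, 11.9, 13 and 5.36 CPM to 13.9, 36, 28.7 and 11.3 CPM (1.39 ± 0.14, adjusted p = 0.00201). RBM14, a coactivator and splicing gene, was the most abundant of them, at 59.1, 79.6, 69.4 and 73 CPM under DMSO and 148, 128, 165 and 190.5 CPM under 5-FU (1.16 ± 0.12, adjusted p = 0.00205), with no overlap. The others were MYO7B (1.44), CEACAM19 (1.27, overlapping the more abundant PVR), SPOCD1 (1.24), DIO2 (1.22), TMEM184A (1.22, overlapping the more abundant MAFK) and GP6 (1.12). DIO2 rose by 1.87 and 2.04 in experiment 1 and by 0.89 and 0.20 in experiment 2.

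Decreases of similar size were those of TAFA5 (-1.61 ± 0.19), a secreted protein gene, the kinase gene PSKH1 (-1.51 ± 0.13), YPEL1 (-1.49 ± 0.18, overlapping PPIL2, which had 17.67 times its counts), IMPA2 (-1.47 ± 0.12), an enzyme gene of inositol recycling, ATP2A3 (-1.44 ± 0.15), a calcium pump gene, EGFR (-1.39 ± 0.33), the receptor of epidermal growth factor, CTNNBIP1 (-1.38 ± 0.14), which encodes an inhibitor of beta-catenin, and NPTXR (-1.31 ± 0.11). EGFR was nearly level under DMSO (12.2, 11.4, 11.1 and 12.5 CPM) and spread under 5-FU (6.62, 8.29, 4.02 and 1.56 CPM). PSKH1 went from 22.6, 15.6, 9.41 and 7.17 CPM to 6.8, 5.21, 3.64 and 2.87 CPM with no overlap. It fell further than in WT (-0.58 ± 0.12), by a difference of -0.94 ± 0.17 (adjusted p = 0.00442), and CTNNBIP1 did too, at -0.99 ± 0.18 (adjusted p = 0.0048).

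The W329G response was set against that of WT cells in a fit of all 16 libraries. Of the 1622 genes called in W329G cells 798 were called in WT in the same direction, 360 up and 438 down. They are 49.2% of the W329G calls and 19.6% of the 4070 WT calls, which were 24.8% of 16429 tested genes. The difference between the responses passed for 1010 genes (6.15%), 592 higher and 418 lower in W329G, and 194 of them were among the 1622. Of the W329G calls without a WT call 104 had a difference past the threshold and 668 did not.

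Calls in opposite directions were found for 52 genes, and 47 kept their W329G call with GC correction. All 52 had a difference past the threshold, but their choice from the same libraries made that likely, so it adds no support. Of these 22 fell in W329G and rose in WT, and 30 did the reverse. The following were chosen after their values were seen. KLHL24, which encodes a ubiquitin ligase adaptor, went from 23, 17.8, 13.7 and 14.7 CPM to 13.2, 8.03, 7.61 and 8.19 CPM in W329G (-0.90 ± 0.11) and rose by 0.52 ± 0.10 in WT. PNRC1, a nuclear receptor coactivator gene, went from 27.2, 26.9, 28.2 and 25.5 CPM to 17.5, 19.1, 20.6 and 17.2 CPM (-0.54 ± 0.09) and rose by 0.94 ± 0.09 in WT. SESN3, a sestrin gene, fell by 0.50 ± 0.09 on the log2 scale in W329G and rose by 0.97 ± 0.09 in WT, and ENC1 fell by 0.87 ± 0.10 and rose by 0.42 ± 0.09. In the other direction C1QTNF2 went from 7.88, 6.67, 5.45 and 4.12 CPM to 11.7, 12.9, 9.79 and 9.31 CPM (0.88 ± 0.14) while it fell in WT (-1.16 ± 0.14), and the organic anion carrier gene SLCO4A1 (0.80 ± 0.12, WT -0.75 ± 0.12) and the transcription factor gene IRF8 (0.55 ± 0.11, WT -0.72 ± 0.11) did likewise.

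**Figure D5:**
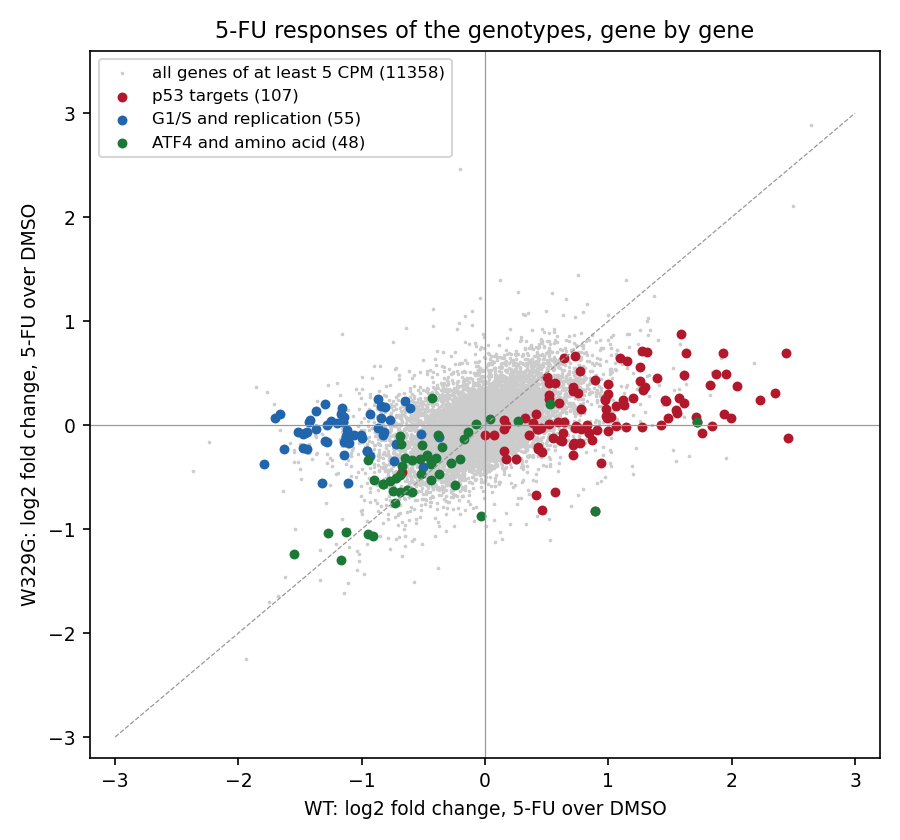
Log2 fold change under 5-FU in WT (x axis) and in W329G (y axis) for the 11358 genes of at least 5 CPM, with p53 targets, G1/S genes and ATF4 genes coloured and a dashed line of equal change; 1 gene lies outside the axes. The p53 targets spread to the right and the G1/S genes to the left at W329G values near 0, and most ATF4 genes lie below 0 on both axes.

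The response was compared between the experiments and between cells 1 and cells 2. The difference between experiments passed for 13 genes (0.084%), where 2994 had an unadjusted p under 0.05 and DESeq2 called 467. The 2994 are more than chance alone gives at that threshold, so the few calls do not show that the experiments agree. Among the 13 genes CYP24A1, which breaks down vitamin D, rose by 1.46 and 1.29 in experiment 1 and changed by 0.05 and -0.22 in experiment 2. UBE2S, a ubiquitin-conjugating enzyme of mitosis, had -0.78 and -0.56 against 0.44 and 0.46, and OTUB1, a deubiquitinase gene, had -0.39 and -0.53 against 0.50 and 0.66. ATP8B1, a lipid flippase gene, had 1.75 and 1.32 against -1.18 and -0.94. Of the 13 genes 4 are pseudogenes. Across all genes the pair responses correlated with r = 0.51 between pairs 1 and 2, 0.43 between pairs 3 and 4 and 0.19 to 0.33 across experiments, as a description. The difference between cells 1 and cells 2 passed for 0 genes in edgeR (141 at an unadjusted p under 0.05) and for 0 in DESeq2. The 141 are fewer than chance alone gives at that threshold. That fit held no term for the response difference between experiments, which thus counted as noise. It therefore does not show that cells 1 and cells 2 responded alike. Cells numbers may not name the same cells in both experiments, since the expression difference between cells 2 and cells 1 correlated across experiments with r = -0.485 under DMSO and -0.568 under 5-FU.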

How the data were processed

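Poly-A RNA libraries were made with a TruSeq kit, per the labels' protocols. The authors deposited raw read counts per gene for each experiment; for the aligner, the counter and the strand setting the answer is: not given in the sources used here. A build, hg19, is named in the submitters' processing notes, while the coordinates deposited with experiment 1 equal GENCODE release 29 (GRCh38) for 96.3% of 56898 genes, and those coordinates are given here. Counts of 7 or more digits in experiment 2 all end in 0 (26 of 26), so they were rounded before deposit. The tables were joined by symbol, 28443 genes directly and 241 through older symbols of RefSeq, with 20 ambiguous symbols left out.

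Genes were filtered with filterByExpr, scaled by TMM and tested in edgeR 4.0.16 (R 4.3.3, quasi-likelihood test, Benjamini-Hochberg adjustment, threshold 0.05) with a term for each pair. Values in WT cells and differences between genotypes came from 1 fit of all 16 libraries. CPM values use the TMM library sizes; pair differences use log2 CPM with a prior count of 2. The labels number the cells within each genotype and experiment. The numbers paired the samples in the data: the difference between cells 2 and cells 1 under DMSO correlated with that under 5-FU with r = 0.708 and 0.632 in W329G and 0.487 and 0.597 in WT. The 2 W329G libraries of each treatment and experiment differed by more than counting noise; other libraries were not compared this way.

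On simulated counts of 15304 genes for the W329G comparison, 97 of 100 genes changed by 1 on the log2 scale and 61 of 100 changed by 0.5 were recovered, with 18 false calls and 0 of the wrong sign. The simulated 5-FU effect had no trend with GC content and no difference between experiments. Errors from these in the real data are thus not measured by it. DESeq2 1.42.0, limma 3.58.1 (voom), other scalings and filters, single experiments and left-out libraries were tried as alternatives. The GC correction (loess of span 0.3 per library, in the fit with pair terms) was chosen after seeing the data. Named genes were MDM2, CDKN1A, MDM4, TYMS and 1 gene not reported here, the 10 largest increases and 10 largest decreases that averaged 5 CPM or more and moved 1 way in all 4 pairs, and the 3 called members of smallest p of each list (all called members where a list had fewer). Not all of them are printed, and any other gene was chosen after its values were seen. The members and lists were chosen with earlier results of these data known. Sequences came from RefSeq (GRCh38.p14) and GENCODE.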

Additional observations from a re-analysis of the deposited data

Results flagged for a closer look

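In 4 of 103 named genes and 2 of 32 gene lists, the response of 1 pair stood far from that of the other 3, where chance gives about 1 in 20. ALDH1L2 changed by -0.59 in pair 1 against -1.51 to -1.42 in the others, and CDC25C by -0.43 in pair 2 against -0.92 to -0.87. SNHG20 rose by 1.56 in pair 4 against 0.48 to 0.61, and it overlaps SEC14L1, which had 24.35 times its counts. TMEM184A rose by 0.86 in pair 3 against 1.32 to 1.36. The mean of the NF-kB list was 0.77 in pair 1 against 0.31 to 0.36, and that of the splicing factor list -0.19 in pair 4 against -0.06 to -0.05.

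The response differed between W329G and WT for 1010 genes and between the experiments within W329G for 13 genes. Among the named genes, the difference W329G minus WT of the log2 responses was positive for GP6 (1.53), ADAMTS1 (1.27), CNN1 (1.20), the homologous recombination gene XRCC3 (1.04, overlapping KLC1), the nucleoside carrier gene SLC29A2 (0.88), MCM6 (0.76) and SMG9 (0.53). It was negative for MDM2 (-1.84), CDKN1A (-1.74), DDIT4 (-1.72), CCNG2 (-1.28), H2BC21 (-1.23), CCNG1 (-1.08), CTNNBIP1 (-0.99), WIPI1 (-0.95), PSKH1 (-0.94), the histone gene H2AC6 (-0.84), the peptide transporter gene TAP1 (-0.83), CCN2 (-0.79), PLK3 (-0.72) and ATG2B (-0.57).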

How the results depend on the processing

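With the replicate block removed (no pairing), 1 gene was called in W329G against 1622, 84 against 1795 in the fit of all 16 libraries, 181 against 1010 for the difference between genotypes, and 0 of the 100 called named genes. Leaving out each pair gave 206 to 1356 calls, and 47 to 89 of the named genes, the lowest without pair 3. Leaving out each pair of either genotype gave 602 to 962 calls for the difference between genotypes. Leaving out each W329G pair gave 14 to 459 for the difference between experiments and 0 to 33 for that between cells numbers. Experiment 2 alone called 3243 genes and experiment 1 alone 1480, and a minimum log2 change of 1 left 190. DESeq2 called 2209 genes, and 467 against 13 for the difference between experiments. With GC correction the difference between genotypes was called for 1744 genes and that between experiments for 8. The other scalings, tests and filters gave 1562 to 2232 calls in W329G.

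In experiment 2 alone MDM2 was at -0.18 (adjusted p = 0.231) and MDM4 at -0.21 (adjusted p = 0.167), against positive values in the fit of 4 pairs. List means near 0 changed sign. Leaving out each pair gave -0.044 to 0.006 for DNA repair, -0.080 to 0.265 for mitochondrially encoded genes, -0.059 to 0.022 for NRF2 targets (0.003 with a prior count of 0.5), -0.10 to 0.019 for hypoxia, -0.071 to 0.001 for MYC targets and -0.050 to 0.005 for the BCL2 family (0.032 as a median). RNA decay genes gave -0.009 as a median, and metallothioneins 0.139 as a median and up to 0.169 without pair 1. The cause was not tested. Genes of a few CPM, such as GDF15 and, under DMSO, CEP295NL, rest on fewer reads. CEP295NL had 1411 reads over the W329G libraries of experiment 1, and its overlap with TIMP2 limits it as well. IRS2, named below, averaged only 0.50 CPM over the W329G libraries, and KLF2 4.72 CPM.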

Other observations

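Over all tested genes 5.35% rose and 5.12% fell in W329G, and 11.6% rose and 13.1% fell in WT. The FOXO and tRNA synthetase lists were written after the values were seen, so they are described with no test. Of 38 tested FOXO target genes 12 fell and 3 rose in W329G under 5-FU, with a median log2 change of -0.20 and pair means of -0.089, -0.226, -0.168 and -0.221. Without pair 1 the count that fell was 5 and without pair 3 it was 2, with medians of -0.27 and -0.25. Among those that fell were KLHL24, BMF, FBXO32, CAT, CDKN1B and BCL2L11. Those that rose were TXNIP (0.91), KLF2 (1.01) and IRS2 (1.70, at a mean of only 0.50 CPM). CCNG2 and DDIT4, described with the p53 targets, and KLF2, described with the immediate early genes, are counted here again. In WT 15 rose and 4 fell, with a median of 0.19. KLHL24 and FBXO32 rose in WT (0.52 and 0.79), while CDKN1B fell there too (-0.61). BMF, CAT and BCL2L11 were not called in WT. For CDKN1B, BMF, CAT and BCL2L11 the difference between genotypes did not pass.

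Of 20 cytosolic tRNA synthetase genes 12 fell and 0 rose, with a median of -0.37 and pair means of -0.279, -0.422, -0.294 and -0.334. Most of those that fell were already counted with the ATF4 and amino acid list, so this is not a separate result. The count was 5 without pair 1, 7 without pair 2 and 1 without pair 3, with medians of -0.40, -0.33 and -0.35. Of 17 mitochondrial synthetase genes 1 fell, IARS2 (-0.42), and 1 rose, CARS2 (0.47), with a median of -0.06, and neither passed without pair 1 or without pair 3. In WT the medians were -0.38 and -0.08. Of 34 cholesterol synthesis genes 5 fell and 1 rose, and 10 fell and 0 rose with GC correction, while 1 fell without pair 1, 2 without pair 2 and 0 without pair 3. Of 40 autophagy and lysosome genes 4 fell and 0 rose in W329G, and 0 fell without pair 1 or without pair 3. In WT 9 rose and 0 fell, and the difference passed for 5, all lower in W329G, where 2.54% of all tested genes had such a difference.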
